A study of Glycine max with 5 samples.

Results

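WRKY and NAC genes are a pair of large plant families of transcription factors, and their transcripts were followed here in the root tip and in non-meristematic tissue of soybean (Glycine max). Members were taken from the probe-to-gene annotation of the array by name: a gene symbol or RefSeq synonym that, without a leading Gm, starts with WRKY or with NAC and a digit. This gave 53 WRKY genes and 20 NAC genes, 73 in all, of the 6031 genes that have a probe set assigned to them alone. The WRKY genes had 104 such probe sets and the NAC genes 41, and each gene was represented by the brightest of its probe sets. The study compared 3 arrays of root apical meristem, cut as 0.5 mm root tips, with 2 arrays of non-meristematic tissue. All plants were of genotype Bragg, 10 days old, untreated and grown in unfertilised potting mix at 28 °C. One tissue field calls the non-meristematic samples leaf, whereas the protocol describes the remainder of the plant, so an effect of the organ and an effect of cell division cannot be told apart. The titles name biological replicates without saying whether plants were pooled or grown apart, so a p-value here covers only the spread among these arrays, which may be technical.

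A WRKY protein binds the W-box, a short DNA element in the promoters of many defence and stress genes, through a domain that carries the amino acids W, R, K and Y. Members of the family switch genes on or off in responses to pathogens, wounding, drought and salt, and several drive leaf senescence. The NAC family is named after the genes NAM, ATAF and CUC. Its N-terminal domain binds DNA, and its members act in the formation of meristem boundaries and lateral roots, in secondary cell wall formation, in senescence and in stress responses. Soybean numbers follow the order in which the genes were named and do not match the numbers of Arabidopsis genes.

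Signals are MAS5 intensities on a linear scale. Array background was set at the 25th percentile of each array, which lay between 17.9 and 22.5 for root meristem and stood at 37 for non-meristematic array 1 and 26.3 for array 2. The root meristem arrays correlated with each other at a Spearman rho of 0.965 to 0.976, and the non-meristematic pair at 0.871. Of 9 tested leaf and chloroplast genes, 8 were lower in root meristem. The summed signal of all 9 ran from 5344 to 5713 over the root meristem arrays, against 43637 and 40346 in non-meristematic tissue. The remaining gene, PSAD, went the other way and made up most of the root meristem sum. It read 4661.5, 4686.6 and 4996.1 against 2833.1 and 3178.3, a log2 difference of 0.67 with no overlap. All 3 dividing-cell and root-tip markers (the histone H4, the replication clamp PCNA and the auxin exporter PIN2A) were higher, and all 7 tested phloem genes were lower. Apart from PSAD, the tissues thus carried the markers of their labels. In such bulk samples, fewer cells of a type and less RNA per cell cannot be told apart.

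Of the 53 WRKY genes, 46 lay above background on at least 2 arrays and were tested. In root meristem 6 of them were higher and 6 were lower, with a limma p, adjusted over all tested probe sets, below 0.05 and a log2 difference of at least 1 in size, and 34 did not pass. Of the 20 NAC genes, 19 were tested, of which 5 were higher, 3 were lower and 11 did not pass. The share that passed was 26.1% of tested WRKY genes and 42.1% of tested NAC genes, beside 39.7% of the 5650 genes tested on the array, where 18.6% were higher and 21.0% lower. The NAC share thus lay near that of all genes and the WRKY share below it. The median log2 difference, root meristem minus non-meristematic, was -0.15 over tested WRKY genes, 1.12 over tested NAC genes and 0.20 over all genes tested. Under quantile scaling these medians were 0.01, 1.13 and 0.26, and under median centring 0.20, 1.48 and 0.56, so the WRKY median has no stable sign. Of the members that passed with no scaling, WRKY55, WRKY40, NAC27 and NAC6 did not pass under quantile scaling. Under median centring WRKY40, WRKY22 and LOC100170685 (WRKY11) did not pass. WRKY genes that passed were 7 higher and 4 lower under either scaling. Over all 5650 genes the counts were 1053 higher and 1188 lower with no scaling, 1129 and 1113 under quantile scaling and 1751 and 1053 under median centring, so all genes shifted towards higher as well.

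**Figure D1:**
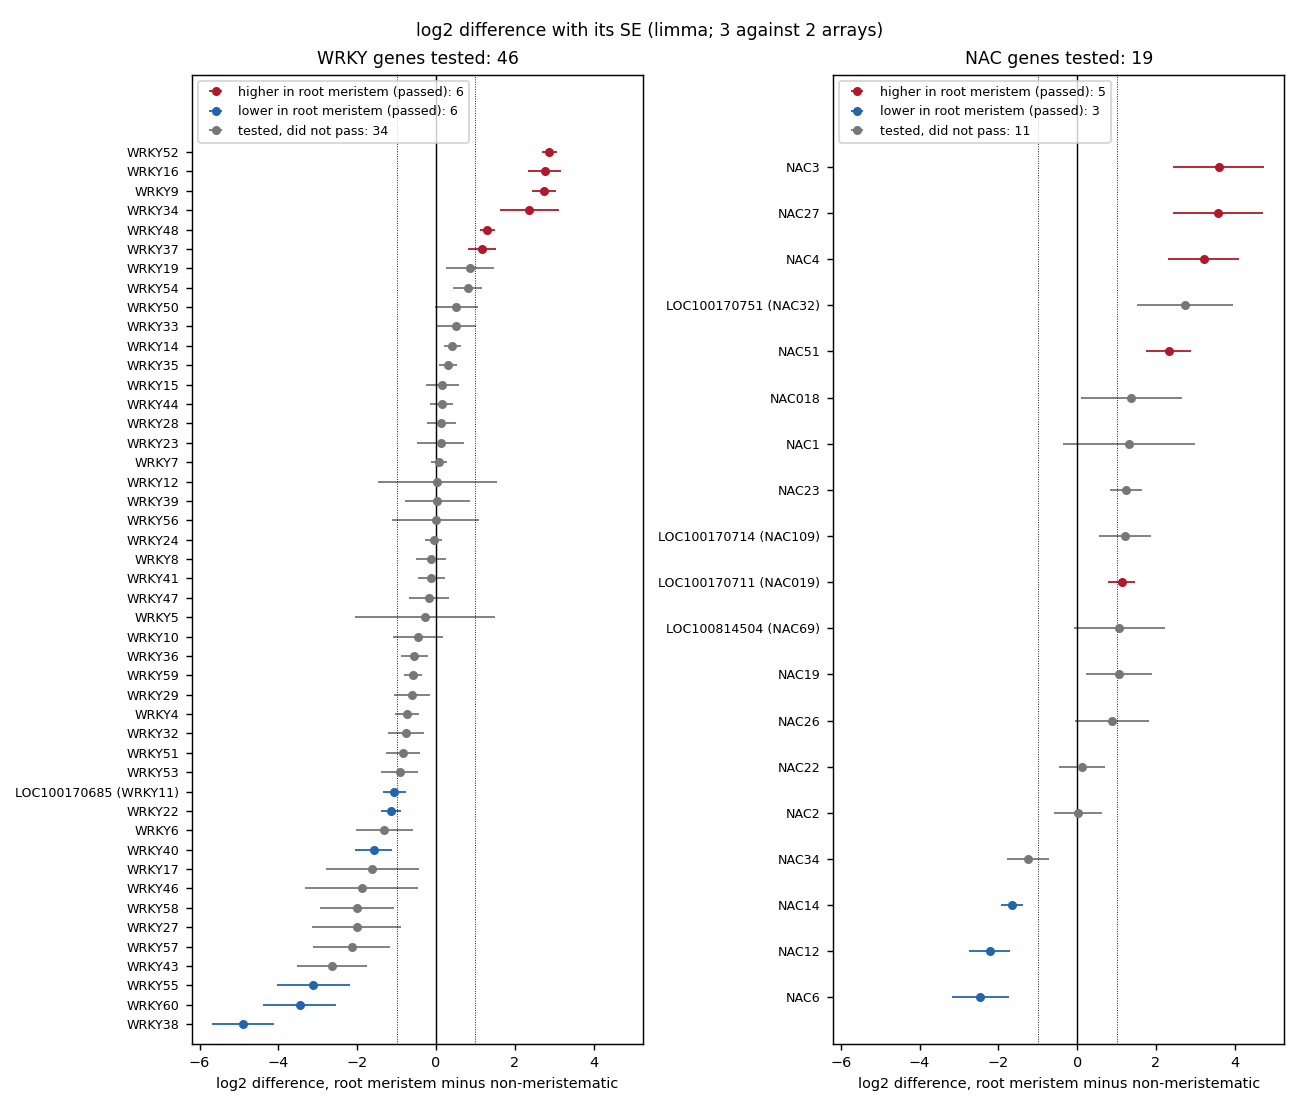
Difference between root meristem (n = 3 arrays) and non-meristematic tissue (n = 2 arrays) for each tested WRKY gene (left) and NAC gene (right), as log2 difference with its SE from limma; dotted lines mark a size of 1. The 6 WRKY genes that passed as higher are joined by 6 that passed as lower, while most NAC genes lie to the right of 0 with wide errors.

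The groups did not overlap for 23 of 46 tested WRKY genes, 10 higher and 13 lower in root meristem. They did not overlap for 10 of 19 tested NAC genes, 6 higher and 4 lower. Over all tested genes the groups did not overlap for 70.4% (40.8% higher and 29.6% lower), which is a larger share than in either family. The members thus overlapped between the tissues more often than most genes did, and the arrays behind that overlap are described further on.

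Among the WRKY genes that were higher in root meristem, WRKY52 had the smallest adjusted p. Its signal was 851.4, 928.5 and 881.1 on the root meristem arrays, against 131.2 and 111.1 in non-meristematic tissue, a log2 difference of 2.88 ± 0.20 (SE; adjusted p = 0.000158). All 3 root meristem arrays lay close together and far above both others. WRKY16 read 483.2, 531.4 and 436.4 against 115.8 and 44, a log2 difference of 2.76 ± 0.41 (adjusted p = 0.00291). The chosen probe set of WRKY16 is of a type that may bind related transcripts, and it stems from the same design cluster as that of WRKY52, so both signals may come in part from the same transcripts. WRKY9 read 214.1, 284.6 and 181.9 against 29.5 and 38.3, a log2 difference of 2.73 ± 0.30 (adjusted p = 0.00095). It was below background on non-meristematic array 1 and above it on array 2.

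WRKY48, also higher, read 1121.5, 998 and 1309.9 in root meristem against 493.5 and 430.3 in the other tissue. Its log2 difference was 1.30 ± 0.20 (adjusted p = 0.00316), and the groups stood apart without overlap. WRKY34 read 123.1, 148.3 and 122.8 against 65.7 and 9.8, a log2 difference of 2.37 ± 0.74 (adjusted p = 0.0424). Here the pair of non-meristematic values spread far more than the root meristem values, and the second was below background. WRKY37 read 99.2, 83.9 and 94.7 against 56.2 and 29.9, with a log2 difference of 1.17 ± 0.36 (adjusted p = 0.0391).

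The WRKY genes that were lower in root meristem were led by WRKY38. It read 7.8, 2.2 and 2.5 on the root meristem arrays, all below background, against 99.9 and 108.2 in non-meristematic tissue. With root meristem held at background the gene was at least 5.13-fold lower there (adjusted p = 0.00383). The adjusted p beside a fold given as at least comes from the limma fit to signals as read. It does not test the bound. WRKY55 was likewise below background on all root meristem arrays, at 10.9, 16.9 and 5.3, and read 225.4 and 32.8 in non-meristematic tissue, at least 4.24-fold lower in root meristem (adjusted p = 0.0351). These genes differ in one respect: the non-meristematic arrays gave nearly equal values for WRKY38 and very unequal ones for WRKY55. WRKY60 read 36.6, 25.1 and 8.4 against 556.9 and 85.2, a log2 difference of -3.46 ± 0.92 (adjusted p = 0.0244), with root meristem array 3 below background.

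WRKY40, which is known in soybean for its part in resistance to Phytophthora sojae, read 22.7, 13.1 and 14.2 against 52.4 and 44.9. Its log2 difference was -1.59 ± 0.47 (adjusted p = 0.0361), from signals near background on every array and below it on root meristem arrays 2 and 3. WRKY22 read 171.3, 181 and 138.9 against 398.9 and 324.1, a log2 difference of -1.14 ± 0.24 (adjusted p = 0.0106). LOC100170685, with the synonyms WRKY11 and WRKY15a and studied in soybean for a link to seed size, was lower as well. It read 677, 573.4 and 547.8 against 1717.8 and 901.4, a log2 difference of -1.06 ± 0.30 (adjusted p = 0.0291). Each of these genes had all 3 root meristem arrays below both non-meristematic arrays.

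The 5 NAC genes that were higher in root meristem included NAC27, also known as SIN1, a factor that promotes soybean root growth under salt. It read 2455.4, 1194 and 526 on the root meristem arrays, against 380.8 and 24.7 in non-meristematic tissue, a log2 difference of 3.57 ± 1.15 (adjusted p = 0.0461). Non-meristematic array 2 was below background, and the root meristem arrays fell apart as well, array 1 lying far above array 3. NAC4 read 2310.6, 1237.8 and 567.1 against 344.6 and 46.7, a log2 difference of 3.21 ± 0.90 (adjusted p = 0.0293). The probe sets of NAC27 and NAC4 belong to the same design cluster, and their signals followed the same order over the 5 arrays, so they may not be separate measurements. NAC3 read 1002.6, 455.6 and 214.3 against 150.5 and 9.8, with a log2 difference of 3.59 ± 1.15 (adjusted p = 0.0462) and array 2 of the latter below background.

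NAC51 and NAC019 made up the rest of this group at much lower signals. NAC51 read 56.3, 41.3 and 30.4 in root meristem and was below background on both non-meristematic arrays, at 11.8 and 5.8. It was at least 1.33-fold higher in root meristem, and its difference beyond that bound was not measured. The bound is a log2 difference of 0.41, less than the required size of 1. NAC51 passed on its signals as read, below background in non-meristematic tissue (limma adjusted p = 0.0178). NAC019 (LOC100170711) read 68.7, 67.3 and 47.8 against 26.1 and 29.5, a log2 difference of 1.12 ± 0.35 (adjusted p = 0.0419), with array 1 of the latter below background. Root meristem lay above non-meristematic tissue on every array for both genes.

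The 3 NAC genes that were lower in root meristem were NAC14, NAC12 and NAC6. NAC14 read 457.2, 390.1 and 347.7 against 960.5 and 1628.7, a log2 difference of -1.66 ± 0.28 (adjusted p = 0.00432). It is one of few NAC genes with its highest value on non-meristematic array 2, and its chosen probe set is of a type that may bind related transcripts. NAC12 read 60.6, 85.2 and 25.1 against 229.2 and 242.3, a log2 difference of -2.22 ± 0.52 (adjusted p = 0.015). NAC6, which promotes cell death downstream of the NRP proteins in soybean stress signalling, read 22.2, 23.4 and 26.6 against 326.1 and 53.5. Its log2 difference was -2.46 ± 0.72 (adjusted p = 0.0344), with root meristem values near background on all 3 arrays.

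**Figure D2:**
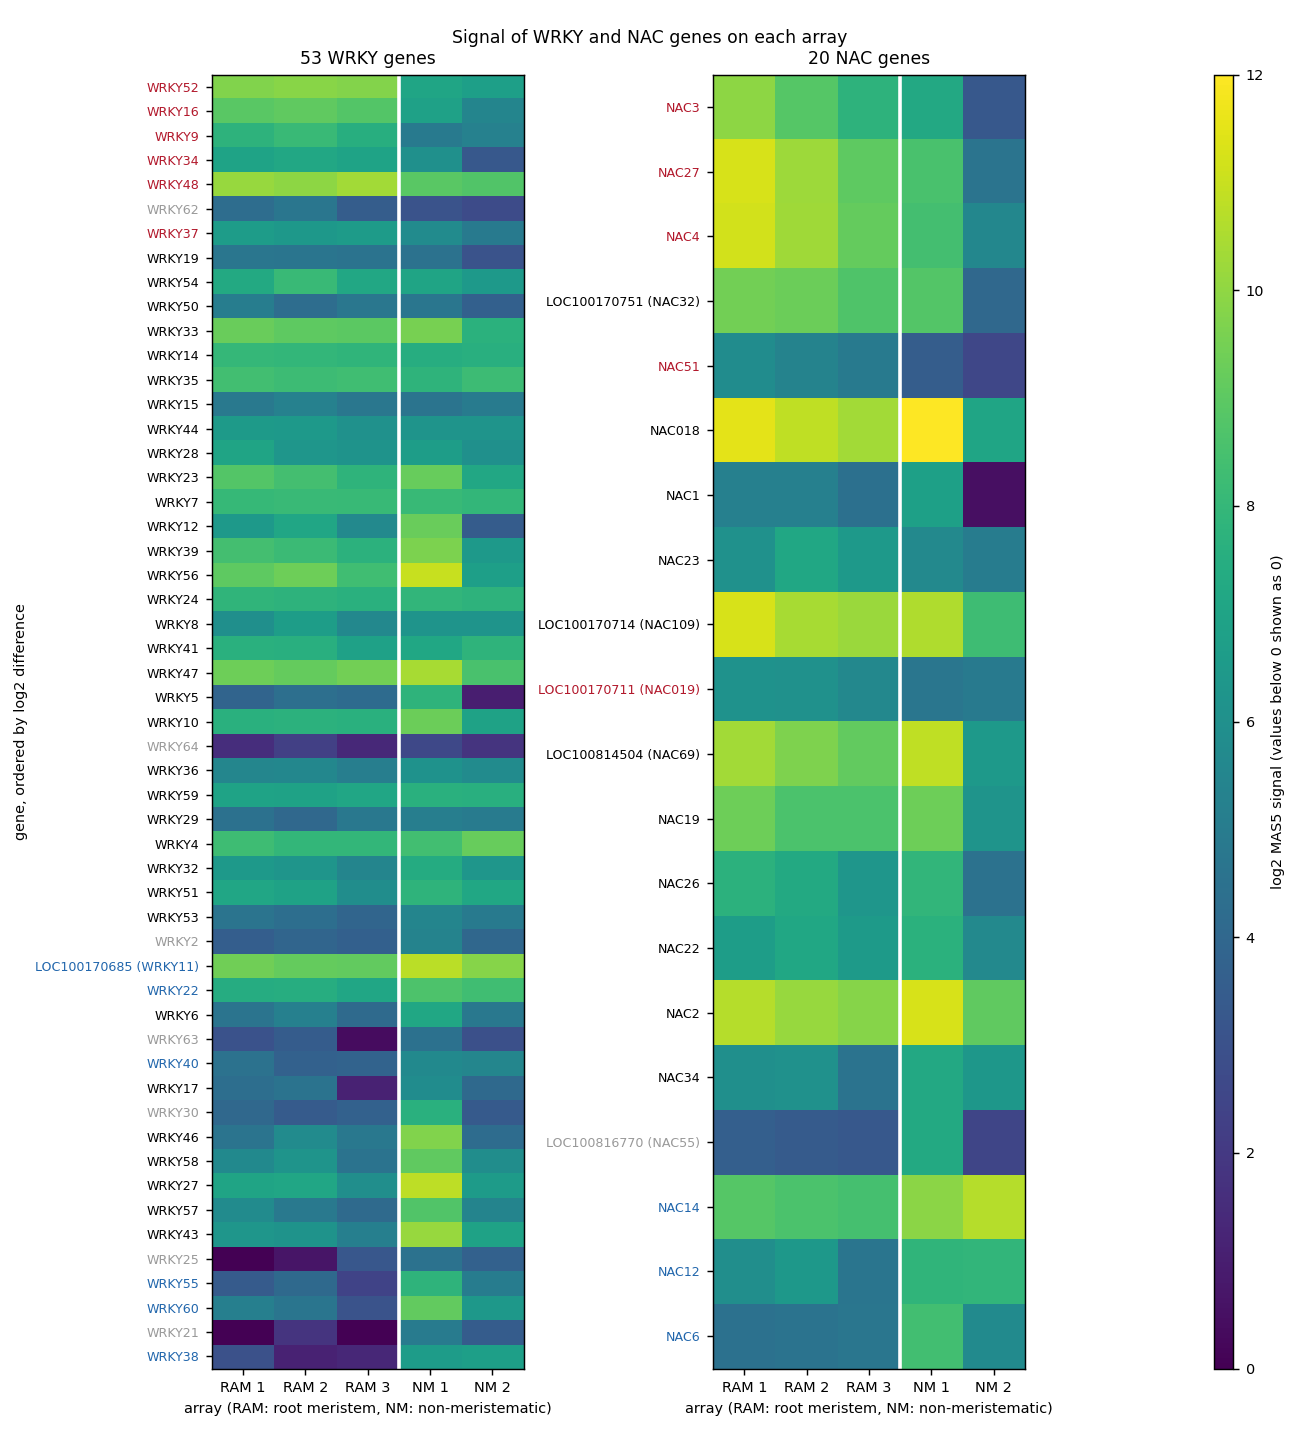
log2 MAS5 signal of all 53 WRKY genes (left) and 20 NAC genes (right) on the 3 root meristem arrays (RAM) and the 2 non-meristematic arrays (NM), with genes in order of their log2 difference; names are red where higher in root meristem, blue where lower, black where tested without passing and grey where not tested. In many rows the first non-meristematic array is the brightest of the 5 and the second among the dimmest.

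The members differed greatly between the 2 non-meristematic arrays, and nearly always in one direction. Among WRKY genes above background on both arrays, 11 of 36 (30.6%) were over 4-fold higher on array 1 than on array 2, and 0 were over 4-fold higher on array 2. Among NAC genes it was 8 of 12 (66.7%), again with 0 in the other direction. Of these 8 genes, NAC018 and NAC69 share a design cluster, as do NAC109 and NAC19, so not all may be separate measurements. Over all genes above background on both arrays, 3.61% were over 4-fold higher on array 1 and 0.465% were over 4-fold higher on array 2. The NAC share was thus the highest of these, and the WRKY share lay between it and that of all genes. With 1 array on each side these are descriptions with no test.

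Genes of both families at the bright end show the size of this difference. NAC018 read 4103.3 on non-meristematic array 1 and 133 on array 2, while root meristem read 2908.4, 1846.3 and 1289.7, in between. WRKY56 read 2049.7 and 110.5 on the non-meristematic arrays and 518.8, 643.4 and 317 in root meristem. NAC69 (LOC100814504) read 1836.9 and 88.1 beside root meristem values of 1304.2, 830.2 and 548.9. In all 3 genes the root meristem values lay inside the gap between the non-meristematic arrays, and none of the 3 passed. NAC2, with 2463.3 and 538.9 beside 1596.8, 1127.2 and 895.8, showed the same order. NAC018 and NAC69 may not be separate examples, since their probe sets come from the same design cluster.

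Further genes were chosen for their unequal non-meristematic values after these were seen. WRKY27, a gene linked to salt and drought tolerance in soybean, read 1798.8 and 94.9 beside 128.8, 138.6 and 60.1 in root meristem. WRKY43 read 1139.3 and 121.1 beside 78.5, 72.2 and 36.8. WRKY46, linked in soybean to responses to low phosphate, read 834.9 and 18.9 beside 24.6, 56.1 and 28.1. On array 2 the value of WRKY46 was below background, and on array 1 it was the highest of the 5 by far. WRKY12 read 610.9 and 11.4 beside 89.9, 138.7 and 50.2. NAC32 (LOC100170751) read 444.5 and 16.5 beside 704.6, 629.4 and 413.7, so that array 1 lay within its root meristem range and array 2 far under it.

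The root meristem range lay wholly between the 2 non-meristematic values for 9 of 46 tested WRKY genes and 7 of 19 tested NAC genes, and array 1 was the higher in each of them. Over all tested genes, 5.29% had this order and 9.40% had a root meristem range between the arrays in either order. By the smaller measure of which array was higher at all, array 1 exceeded array 2 in 29 of 36 WRKY genes and 10 of 12 NAC genes, against 36.4% of all genes above background on both. The median log2 ratio of array 1 to array 2 was 0.67 over WRKY genes, 2.24 over NAC genes and -0.20 over all genes. MYB and bZIP genes, other families of transcription factors, had array 1 higher in 25 of 41 (61.0%, median 0.26) and 29 of 56 (51.8%, median 0.07). All 4 families thus had positive medians where that of all genes was negative, and the NAC median was the highest of them.

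**Figure D3:**
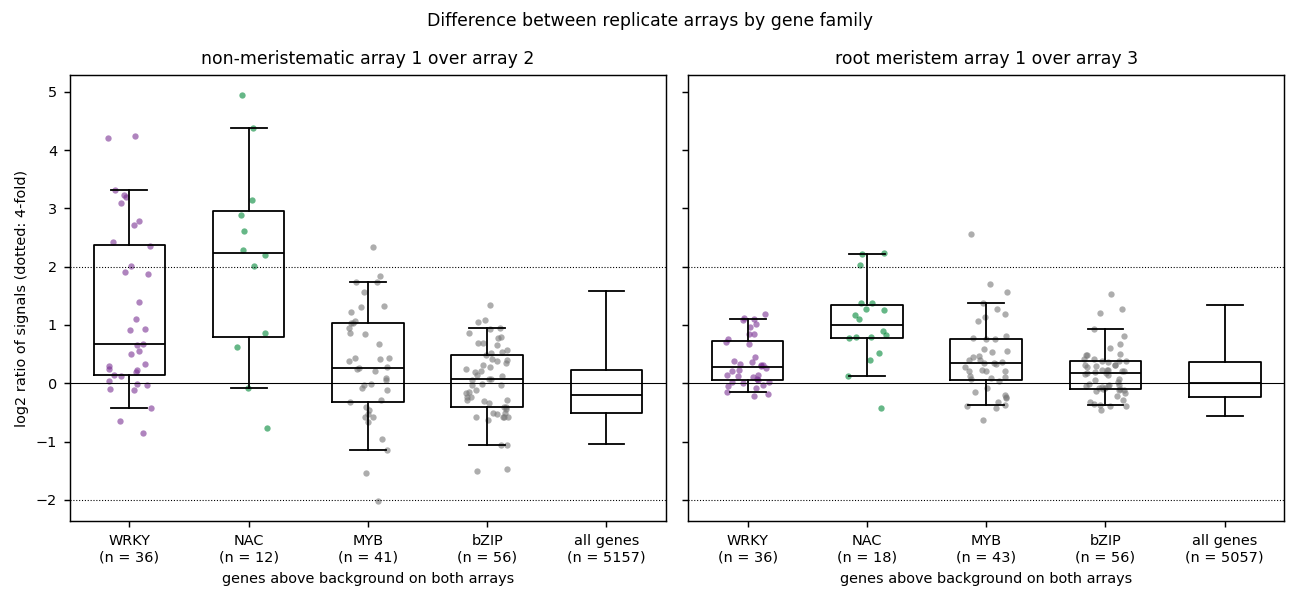
log2 ratio between replicate arrays for genes above background on both, by family: non-meristematic array 1 over array 2 (left) and root meristem array 1 over array 3 (right). Points are genes (not drawn for all genes), boxes span the quartiles with the median, whiskers reach the 5th and 95th percentiles and dotted lines mark 4-fold; WRKY and NAC genes reach far above the 4-fold line on the left, MYB and bZIP genes rarely.

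The MYB and bZIP families were also compared at the 4-fold level. MYB proteins regulate, among others, pigment synthesis and cell fate, and bZIP proteins act in hormone and light responses. Of 41 MYB genes above background on both non-meristematic arrays, 1 was over 4-fold higher on array 1 and 1 on array 2, and of 56 bZIP genes 0 were so in either direction. Their counts thus lay near those of all genes, below those of the WRKY and NAC genes. In the comparison of the tissues, 6 of 54 tested MYB genes were higher in root meristem and 10 lower. Of 62 tested bZIP genes, 13 were higher and 9 lower. The share that passed was 29.6% of MYB genes and 35.5% of bZIP genes, beside 39.7% of all tested genes. Of the 9 leaf and chloroplast markers, 3 were higher on non-meristematic array 1 than on array 2 and 0 by over 4-fold, and their summed signal differed little between the arrays (43637 and 40346). Whether plants, handling or RNA differed between the non-meristematic samples was not tested.

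A like order was present among the root meristem arrays, at a smaller size. Array 1 exceeded array 3 in 30 of 36 WRKY genes (83.3%) and in 17 of 18 NAC genes (94.4%) above background on both, against 50.1% of all genes. It did so in 33 of 43 MYB genes (76.7%) and 34 of 56 bZIP genes (60.7%). The median log2 ratio of array 1 to array 3 was 0.29 over WRKY genes, 0.99 over NAC genes, 0.35 over MYB genes and 0.17 over bZIP genes, so the WRKY median lay between those of bZIP and MYB genes. Over 4-fold higher on array 1 were 3 NAC genes, namely NAC3, NAC27 and NAC4, and 0 WRKY genes, against 1.27% of all genes (0.0989% were over 4-fold higher on array 3). The exception among NAC genes was NAC23, with 67.3 on array 1 and 90.2 on array 3. Of the other pairs, array 1 exceeded array 2 in 21 of 38 WRKY genes (55.3%) and 13 of 18 NAC genes (72.2%), against 49.0% of all genes. Array 2 exceeded array 3 in 29 of 35 WRKY genes (82.9%) and 18 of 19 NAC genes (94.7%), against 54.8% of all genes. For WRKY genes array 3 was thus the low one, and arrays 1 and 2 were nearly level. For genes above background on all 5 arrays, the log2 ratios of the non-meristematic pair and of root meristem arrays 1 and 3 were correlated. Pearson r was 0.495 over 29 WRKY genes, 0.372 over 11 NAC genes and 0.194 over 4620 genes in all. Spearman rho was lower, at 0.407, 0.282 and 0.148 for the same genes. Genes are not independent replicates, and all ratios share the same 4 arrays.

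Which genes passed therefore turned on the non-meristematic array that was used. With array 1 left out, the median log2 difference over tested NAC genes was 2.57, and 14 NAC genes were higher and 2 lower. With array 2 left out the median was -0.81, and 2 were higher and 5 lower. Of all genes, 38.9% passed without array 1 (21.3% higher, 17.6% lower) and 43.5% without array 2 (23.8% higher, 19.7% lower). The NAC median thus changed sign between the fits. For WRKY genes the medians were 0.12 and -0.71, with 11 higher and 1 lower without array 1 and 4 higher and 16 lower without array 2. In each of these fits a lone non-meristematic array is assumed to vary like the other arrays.

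Some genes passed in opposite directions in these fits. Without array 1, WRKY12 was higher in root meristem by a log2 difference of 2.91 (adjusted p = 0.00513), and without array 2 it was lower by -2.84 (adjusted p = 0.00437). The same reversal held for WRKY56, WRKY39, NAC1 and NAC2, which makes 3 of 41 WRKY genes and 2 of 19 NAC genes tested in both fits, against 1.46% of all genes. These 5 genes have no settled direction between the tissues. WRKY12 and NAC1 lay below background on array 2, so their fitted sizes without array 1 are not measured in full. NAC51 lay below background on both non-meristematic arrays, so its size is not measured in full in either fit. Passing in the same direction in both fits were WRKY52, WRKY16, WRKY9 and WRKY48, NAC51 as higher, and NAC14 and NAC12 as lower. That is 4 of 41 WRKY genes and 3 of 19 NAC genes, against 28.6% of all genes.

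**Figure D4:**
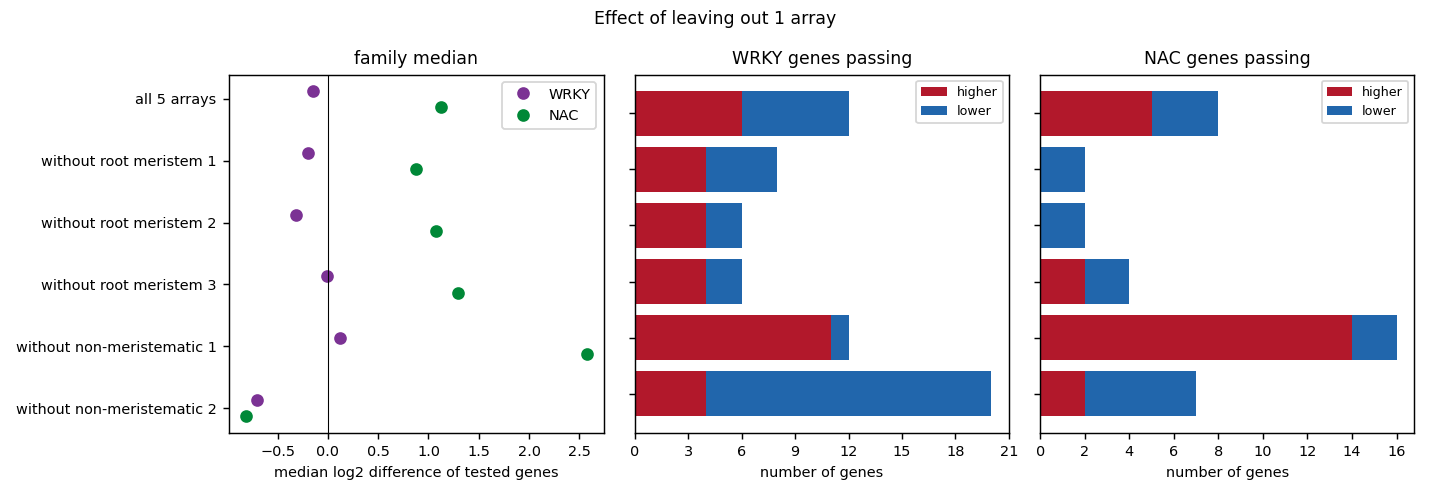
Effect of leaving out 1 array at a time: median log2 difference over tested WRKY and NAC genes (left), and number of WRKY genes (centre) and NAC genes (right) that passed as higher or lower in root meristem. The NAC median moves from 2.57 without non-meristematic array 1 to -0.81 without array 2, and the number of NAC genes that pass runs from 2 to 16.

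Among the genes that passed with all 5 arrays, NAC27 had a log2 difference of 5.55 without non-meristematic array 1 and of 1.60 without array 2, where it did not pass. NAC3 had 5.56 and 1.61, and NAC4 had 4.65 and 1.77, also without passing in the second case. These NAC genes thus passed only in fits that held the low values of array 2. NAC27 and NAC3 lay below background there, so their fitted sizes without array 1 are not measured in full. In the other direction NAC6 had -1.16 without array 1, where it did not pass, and -3.76 without array 2. WRKY60 had -2.11 without passing and -4.82 in the same fits, and LOC100170685 had -0.59 without passing and -1.53. Without array 2, WRKY34 had 0.99 and WRKY37 had 0.72, and neither passed. Other losses came with little change in size. WRKY22 had -0.99 without array 1 (adjusted p = 0.0239), just short of the required size, and NAC019 had 1.04 (adjusted p = 0.0716). WRKY40 had -1.47 without array 1 and -1.70 without array 2 and passed in neither fit (adjusted p = 0.106 and 0.0741). WRKY38 and WRKY55 could not be tested with either array left out, because only the non-meristematic arrays read them above background. Leaving out root meristem arrays mattered too, as NAC genes that passed numbered 2 without array 1, 2 without array 2 and 4 without array 3, beside 37.1%, 34.6% and 35.6% of all genes.

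A few WRKY genes gave close values on all 5 arrays, and these were chosen after their values were seen. WRKY7 read 261.2, 283 and 268 in root meristem against 269.6 and 247.6 in the other tissue. Its log2 difference was 0.07, with a 95% interval of -0.43 to 0.56. WRKY24 read 228.5, 217.4 and 197.8 against 235.3 and 213.1, with an interval of -0.58 to 0.46. For both genes these intervals leave out a log2 difference of 1 in either direction. WRKY14 read 254.2, 249 and 230.8 against 177.3 and 189.3, with no overlap and an interval of -0.09 to 0.92. WRKY35 read 325.7, 300 and 320.6 against 222.1 and 298.7, with an interval of -0.25 to 0.83. WRKY59 was less close between the tissues. It read 125.4, 121.5 and 139.3 against 195 and 189.2, a log2 difference of -0.58 ± 0.23 that did not pass (limma adjusted p = 0.0849). Its groups did not overlap, and its interval of -1.12 to -0.04 left out 0 and held -1. The other probe set of WRKY59 had a log2 difference of -0.92 and did not pass either. No NAC gene had an interval as narrow as those given here.

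Among WRKY genes that did not pass, those with the highest mean log2 signal over the 5 arrays were WRKY47, WRKY33, WRKY56, WRKY4 and WRKY23. WRKY47 read 653.3, 569.1 and 690 against 1389.6 and 372.1, and WRKY33 read 615.4, 521.8 and 510.6 against 741.2 and 203.2. WRKY23 read 441.5, 336.2 and 227 against 598.7 and 148. All 3 had root meristem values between the non-meristematic ones. WRKY4 differed from them, with 307.7, 244 and 249 against 329.6 and 598.3, so that array 2 was its highest. By the same measure the NAC genes were NAC018, NAC2, NAC109, NAC69 and NAC19. NAC109 (LOC100170714), which alters lateral root number when expressed in Arabidopsis, read 2503, 1376.9 and 1170.6 against 1525.7 and 312.8. NAC19 read 660.5, 386.6 and 383 against 660.6 and 75.2, and its probe set shares a design cluster with that of NAC109.

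Several genes had more than one tested probe set, which gives a further look at the same transcript on the same arrays. Of 21 such WRKY genes, the probe sets shared sign and outcome in 14, differed in sign in 4 and in outcome alone in 3. Of 11 such NAC genes, they shared both in 5, differed in sign in 1 and in outcome alone in 5. Over all tested probe sets of the array, 32.5% passed. In 0 genes did probe sets pass in opposite directions. All 4 probe sets of WRKY34 and all 3 of WRKY48 were higher in root meristem, with log2 differences of 1.30 to 3.92 for WRKY48. The other tested probe set of WRKY37 had a log2 difference of 0.40 and did not pass. NAC109 did not pass by its brightest probe set, yet 2 of its 4 probe sets were higher. WRKY4 likewise had 2 of 4 probe sets that were lower, while the brightest did not pass. NAC3 was higher by 1 of its 4 probe sets, the brightest, and NAC23 by 1 of its 3, not the brightest. NAC27 was higher and NAC12 lower by 1 of 2 tested probe sets, the brightest in each. The other probe set of NAC27 had overlapping groups and did not pass (log2 difference 3.13, limma adjusted p = 0.0836). WRKY22 was lower by 2 of its 4 tested probe sets, the brightest among them.

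**Figure D5:**
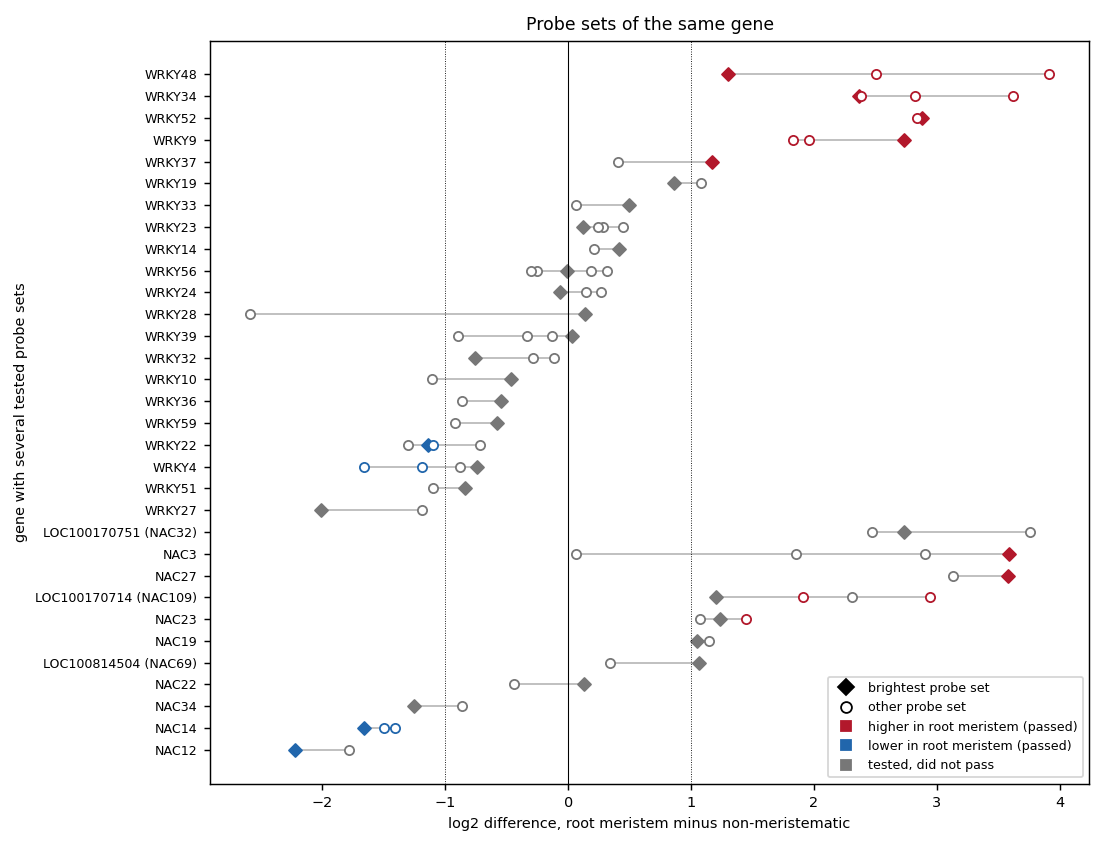
log2 difference, root meristem minus non-meristematic, of every tested probe set of the WRKY and NAC genes with several; filled diamonds mark the brightest probe set, open circles the others, and colour marks those that passed. The probe sets of WRKY48, WRKY34, WRKY52 and WRKY9 all passed as higher, and those of NAC14 all as lower.

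The members that were not tested were WRKY2, WRKY21, WRKY25, WRKY30, WRKY62, WRKY63 and WRKY64, and NAC55 (LOC100816770). Most were at or below background on nearly all arrays, so that their levels were not measurable with this array. WRKY30 and NAC55 were above background on non-meristematic array 1 alone, where they read 195 and 154.5. On the other 4 arrays WRKY30 read between 10.7 and 16.4, and NAC55 between 5.6 and 12.4. WRKY21, which conferred cold tolerance when expressed in Arabidopsis, read at most 3.5 in root meristem against 32.3 and 11.4 in the other tissue, below background on each array. WRKY30 and WRKY63 are neighbours in the RefSeq gene order, with 2 protein-coding genes between them, and so are WRKY10 and WRKY64.

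Genes that act with these families were read from lists chosen by name. Of 5 tested genes of the cell death pathway in which NAC6 acts, the protease gene VPE was higher in root meristem, at least 2.01-fold, and VPE2 was lower (adjusted p = 0.00112). VPE2 read 25.4, 15.8 and 8.8 against 3981.6 and 675.5, above background on 1 of the 3 root meristem arrays, so the size of its difference was not measured in full. The upstream gene NRP-A read 1211.4, 902 and 625.9 against 4357.9 and 540.7 and did not pass, nor did NRP-B and ERD15. Of this list, 4 genes were above background on both non-meristematic arrays, and all 4 were higher on array 1. By over 4-fold it was 3 of the 4 (NRP-A, VPE2 and NRP-B, which read 340.9 and 68.8), against 3.61% of all genes. The median log2 ratio of array 1 to array 2 was 2.43 over these 4 genes. Of 16 tested defence signalling and pathogenesis-related genes, 2 were higher and 0 lower, with 3 defence genes not tested. The share that passed was 40% of the cell death list and 12.5% of the defence list. Over all tested genes it was 39.7% (18.6% higher and 21.0% lower). The chitinase gene CHIA1 was at least 11.5-fold higher (adjusted p = 0.000143) and the pathogenesis-related gene PR-10 at least 30.9-fold higher (adjusted p = 0.000207) in root meristem. Of 13 defence genes above background on both non-meristematic arrays, 1 was over 4-fold higher on array 1, namely NDR1b, which read 901.2 and 45.2. In 7 of these 13 genes array 1 was the higher, by any amount, and the median log2 ratio of array 1 to array 2 was 0.19.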

How the data were processed

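The authors deposited MAS5 signal intensities on a linear scale, 1 value per probe set and array, for 37593 probe sets, with MAS5 named per the submitters' processing notes. Version and target of scaling were not given in the sources used here. Free-text sample descriptions speak of embryos and go against every other label, so groups were taken from the titles. Signals were floored at 0.1, log2 was taken with no further scaling, and probe sets above the 25th percentile of their array on at least 2 arrays (30941, of which 10060 or 32.5% passed) entered limma (3.58.1, under R 4.3.3; lmFit and eBayes with trend, 3 residual and 3.68 prior degrees of freedom). Benjamini-Hochberg adjustment ran over all tested probe sets, and passing took an adjusted p below 0.05 and a log2 difference of at least 1 in size. A group with no array above background was held at its background, or at its own signal if higher, and its fold is given as "at least". Adjusted p and passing for such genes rest on the signals as read, including those below background. Of the probe sets that passed, 4452 were higher and 5608 lower, which became 5686 and 4712 under quantile scaling and 7668 and 4689 under median centring. Trimmed mean signals were 268 to 277 on all arrays. The number of arrays limits the precision.

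Genes were named from the platform annotation (8677 probe sets with 1 gene, 370 with several, 28546 not listed), and 8652 of the 8677 matched the RefSeq table of Glycine_max_v4.0. A further 7 genes (WRKY13, WRKY49, WRKY61 and 4 NAC genes) had probe sets shared with other genes alone and were left out. Genes named by rule were all members that passed, up to 5 brightest in each family that did not, and those whose probe sets differed. Further members were named outside this rule, among them WRKY27, NAC32 and WRKY7, which were chosen after their values were seen. Members, lists and rules were chosen with earlier results of these data known. The procedure was tested on simulated data. Alternatives were quantile and median scaling, log2(signal + 16), no filter, no trend, limma's treat, other choices of probe set, a replicate block and each array left out.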

Additional observations from a re-analysis of the deposited data

How the results depend on the processing

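Limits: the number of arrays limits every comparison, probe sets near background give bounds only, and 1 of the 2 non-meristematic arrays decided many values. The count of NAC genes that passed was 8; it was 5 without the background filter and 4 without the intensity trend, and 2 to 16 with 1 array left out. Over all genes 2241 of 5650 passed, 2232 of 6031 without the filter and 2155 of 5650 without the trend. Under limma's treat, which tests against a log2 difference of 1, 0 of 19 NAC genes passed, with 7 at an unadjusted p below 0.05. In the same fit 4 of 46 WRKY genes and 4032 of 30941 probe sets passed. The latter count is of probe sets and not of genes, and no share of all genes is given beside it. The count of WRKY genes was 12, and 6 to 20 with 1 array left out. Leave-one-out medians ran from -0.81 to 2.57 for NAC genes. The cause of these changes was not tested. Replicate numbers were not shown to pair samples, as their deviations correlated at 0.0987 and -0.0888. With the number as a replicate block, which drops root meristem array 3, 6 of 46 WRKY genes and 7 of 19 NAC genes passed. So did 7589 of 30941 probe sets, again not a count of genes, and WRKY56 stood at 0.28.

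Log2 differences that changed sign belonged to genes that had not passed. Quantile scaling gave 0.063 for WRKY24 and -0.10 for NAC2, and median centring gave 0.18 for WRKY47, 0.34 for WRKY56 and 0.29 for WRKY24. WRKY39 was at -0.015 on the log2(signal + 16) scale and at -0.90 with unmarked probe sets. The mean over probe sets gave 0.12 for WRKY24, -1.23 for WRKY28, -0.33 for WRKY39 and -0.16 for NAC22. With 1 array left out, WRKY23 ran from -0.89 to 1.13, WRKY28 from -0.19 to 0.47, WRKY39 from -1.52 to 1.58, WRKY56 from -2.12 to 2.10, WRKY47 from -1.13 to 0.77, WRKY24 from -0.14 to 0.0073 and WRKY33 from -0.44 to 1.43. NAC2 ran from -1.07 to 1.12, NAC22 from -0.88 to 1.14, NAC018 from -1.11 to 3.84, NAC69 from -1.13 to 3.25 and NAC19 from -0.52 to 2.62. WRKY52 and WRKY9 passed under all 16 alternatives.

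Counts of genes over 4-fold higher on non-meristematic array 1 were recomputed in a check added after seeing the data. With no scaling they were 11 of 36 WRKY and 8 of 12 NAC genes, against 3.61% of all genes. Of the same genes, 13 and 8 were so under quantile scaling and 10 and 7 under median centring. With unmarked probe sets the counts were 11 and 8. The share of all genes under these other settings is not given here. Whether the excess over all genes held there cannot be read from these counts.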
